A study of Mus musculus with 8 samples.

Results

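The cholesterol and mevalonate pathway is described here through 31 genes, listed by their known function, with earlier results of these data known. They comprised 8 genes of the mevalonate and prenyl diphosphate steps, 11 genes that carry squalene to cholesterol, 5 genes of the SREBP system that controls both, and 7 genes of cholesterol transport, storage and the liver X receptor (LXR). All 31 were found by Ensembl identifier among the 46517 genes of the deposited table, and all 31 were expressed highly enough to be among the 14139 genes tested.

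The cells were osteoclasts, the multinucleated cells that resorb bone, grown from femoral bone marrow of mice 6 to 8 weeks old. Non-adherent marrow cells were cultured for 7 days in GST-RANKL at 50 ng/ml, the cytokine that drives osteoclast formation, and in 10% medium conditioned by L929 cells, the source of M-CSF. That is the account in the labels, while the study's methods describe a stage in L929 medium alone, from which the attached cells were replated into RANKL. RNA from 4 mice with a global deletion of *Elmo1* (*Elmo1*-/-) was compared with RNA from 4 *Elmo1*+/- controls, 1 library per mouse. The deletion was not restricted to osteoclasts, the controls had also lost 1 of their *Elmo1* copies, and although their titles say WT, the genotype labels give *Elmo1*+/-. Values are normalized counts, meaning reads on a gene divided by the size factor of its library, and a log2 fold change is *Elmo1*-/- relative to *Elmo1*+/- on the log2(normalized count + 1) scale. Where the 4 values of a genotype are listed, they stand in the order of mice 1 to 4.

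The mevalonate pathway builds isoprenoid units from acetyl-CoA. *Fdps* and *Ggps1* make the farnesyl and geranylgeranyl diphosphates that are attached to small GTPases, including the Rac proteins that ELMO1 and its DOCK partners activate. Nitrogen-containing bisphosphonates, the common drugs against osteoclastic bone loss, inhibit FDPS. The same intermediates go on through squalene to cholesterol. When sterol is scarce, the escort protein SCAP carries the SREBP factors to the Golgi for activation and they induce the synthesis genes, whereas the INSIG proteins hold them back when sterol is plentiful. Oxysterols formed from excess cholesterol activate LXR, whose targets *Abca1*, *Abcg1*, *Apoe*, *Mylip* and *Srebf1* export cholesterol, limit lipoprotein uptake and promote fatty acid synthesis.

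*Elmo1* itself was 292 ± 17.6 normalized counts (SD, n = 4 mice) in *Elmo1*-/- and 1593 ± 150.3 in *Elmo1*+/- osteoclasts, a change of −2.44 on the log2 scale (adjusted p = 8.4e-06, limma with Benjamini-Hochberg adjustment), so the libraries matched their genotype labels. The libraries held 20905502 to 40846651 reads on genes. The first principal component took 62.3% of the variance. On it libraries 1 and 2 of both genotypes formed one side and libraries 3 and 4 the other. *Elmo1*-/- mouse 1 lay farthest out, at 52.3, and controls 1 and 2 were at 23.1 and 26.3. *Elmo1*-/- mouse 2, at 6.03, lay nearest the other side. Libraries 3 and 4 spanned only −31.9 to −24.65, so libraries 1 and 2 were the less uniform set. All 11 osteoclast markers examined were expressed in every library, and they were lower in every library numbered 1 or 2 than in every library numbered 3 or 4, with summed normalized counts of 452772 to 694534 against 1031880 to 1175859. The 8 macrophage markers summed to 169165 to 194881 in libraries 1 and 2 and to 136161 to 178411 in libraries 3 and 4, ranges that overlap, but 7 of the 8 had a higher mean log2 value in libraries 1 and 2 and 3 of them, *Mrc1*, *Cd14* and *Mertk*, were higher there without overlap (*Mrc1* by 1.13 on the log2 scale). The 9 markers of neutrophils and their precursors summed to 13177 to 22647 and to 10389 to 13966, also overlapping, with all 9 higher in mean log2 value in libraries 1 and 2 and 1, *S100a8*, without overlap. Stromal and adipocyte markers were each at or below a summed 1106 normalized counts, T cell markers at or below 70.4 and B cell and erythroid markers at or below 10.1, with *Cd3g*, *Hbb-bs* and *Plin1* at 0 in every library. No marker of these lists was called between the genotypes. Both sets hold 2 mice of each genotype, as each of the study's 2 experiments did, but which mice shared an experiment is not stated. Each result below is therefore given over all 8 libraries and, where it matters, within each set.

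Measured per kilobase of exon, which allows levels of different genes to be compared, the members spanned a wide range. *Apoe*, the lipid-carrying apolipoprotein secreted by macrophages, stood highest, with a mean of 2708 normalized counts per kilobase over the 8 libraries. It was followed by *Insig1* at 665, the cholesterol-esterifying enzyme *Soat1* at 583, the LXR gene *Nr1h3* at 548, the sterol isomerase *Ebp* at 528 and *Hmgcs1* at 527. The values of these last 5 overlapped between libraries, so their order is not resolved. The lowest levels per kilobase were those of the isomerase *Idi1* at 33.7, the sterol reductase *Tm7sf2* at 41.7 and *Fdps* at 72.7. Each of these genes shares exon bases with another gene or is closely matched by one, as given below. Reads there could be dropped, so their levels and places are uncertain. Even *Idi1*, the least covered member, rested on 71 to 200 reads per library. Spread across mice also differed greatly between members: the coefficient of variation of the normalized count over the 8 libraries was 5.56% for *Nr1h3*, 7.33% for *Srebf2* and 7.68% for *Dhcr7*, but 33.0% for *Abca1*, 44.2% for *Abcg1* and 101% for *Apoe*.

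**Figure D1:**
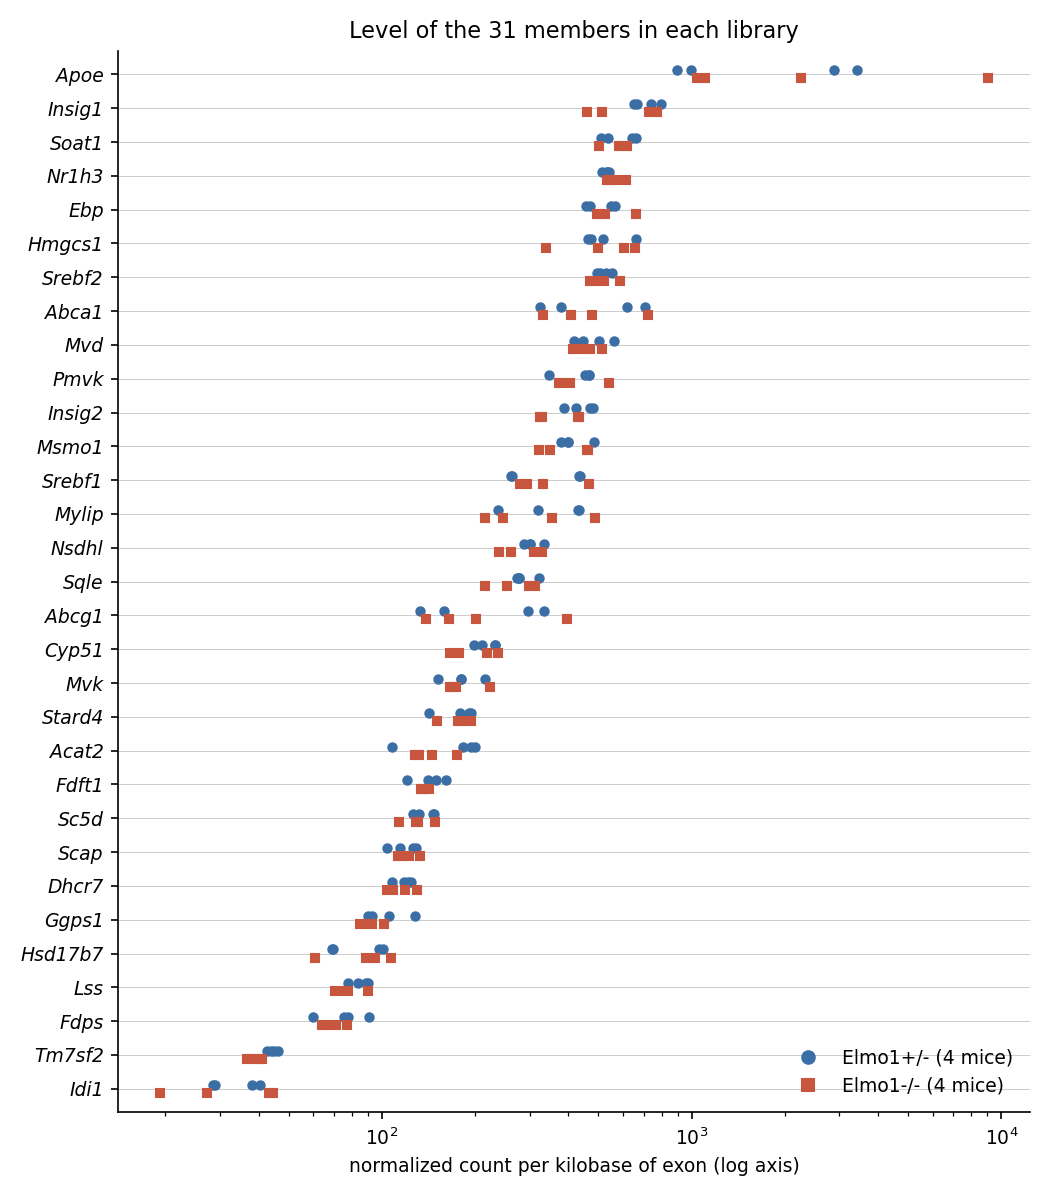
Normalized count per kilobase of exon (log axis) of the 31 members, ordered by their mean, with 1 circle per *Elmo1*+/- mouse and 1 square per *Elmo1*-/- mouse. *Apoe* stands highest and is the most widely spread, *Idi1* is lowest, and the genotypes overlap for every member except *Tm7sf2*.

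The first question was whether loss of *Elmo1* altered the pathway in mature osteoclasts. No member passed the test between the genotypes. By limma 0 of the 31 were called at an adjusted p of 0.05, against 1 of the 14139 genes tested (0.00707%), which was *Elmo1* itself. At an unadjusted p under 0.05 there were likewise 0 of 31 members against 0.941% of all genes. The quasi-likelihood test of edgeR and the Wald test of DESeq2 on the recovered reads also gave 0 members, both adjusted and unadjusted. A share of 0.941% is below the nominal 0.05, and the main fit had no term for the sets of libraries, so it was cautious. With the set as a term in limma, 411 of the 14139 genes tested had an unadjusted p under 0.05. Among them was 1 of the 31 members, *Insig2*, and 0 members were called. In the main fit the smallest unadjusted p of any member was 0.0683, for *Tm7sf2*. Log2 fold changes ran from −0.24 for *Insig1* to 0.35 for *Apoe*.

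The members lay slightly to the low side in *Elmo1*-/- osteoclasts. Their median log2 fold change was −0.06, beside −0.003 for all genes tested, and 25 of 31 were below 0, where 51.6% of all genes were. With equal library totals the count was 23, since *Srebf1* and *Stard4* changed sign. By role, 7 of 8 mevalonate and prenyl genes, 9 of 11 squalene-to-cholesterol genes, 4 of 5 SREBP genes and 5 of 7 transport and LXR genes lay below 0. This lean was present in only 1 of the sets of libraries. Within libraries 1 and 2 the median over the members was −0.17 with 26 of 31 below 0, and within libraries 3 and 4 it was 0.053 with 7 of 31 below 0. Without *Elmo1*-/- mouse 1 the median over all remaining libraries was −0.08 with 24 of 31 below 0. It was −0.022 with 18 below 0 without control 1, −0.031 with 23 below 0 without *Elmo1*-/- mouse 2, and −0.12 with 25 below 0 without control 3. Within libraries 1 and 2 an unadjusted p under 0.05 by limma was found for 3 of the 31 members, *Cyp51*, *Insig1* and *Insig2*. The same held for 361 of the 14139 genes tested. Within libraries 3 and 4 it was found for 2 members, *Apoe* and *Ggps1*, and for 419 of the 14139 genes. In either set 0 members were called, and each fit compared only 2 mice of each genotype. No set test was made, and the genes of a pathway that move together are not independent observations.

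**Figure D2:**
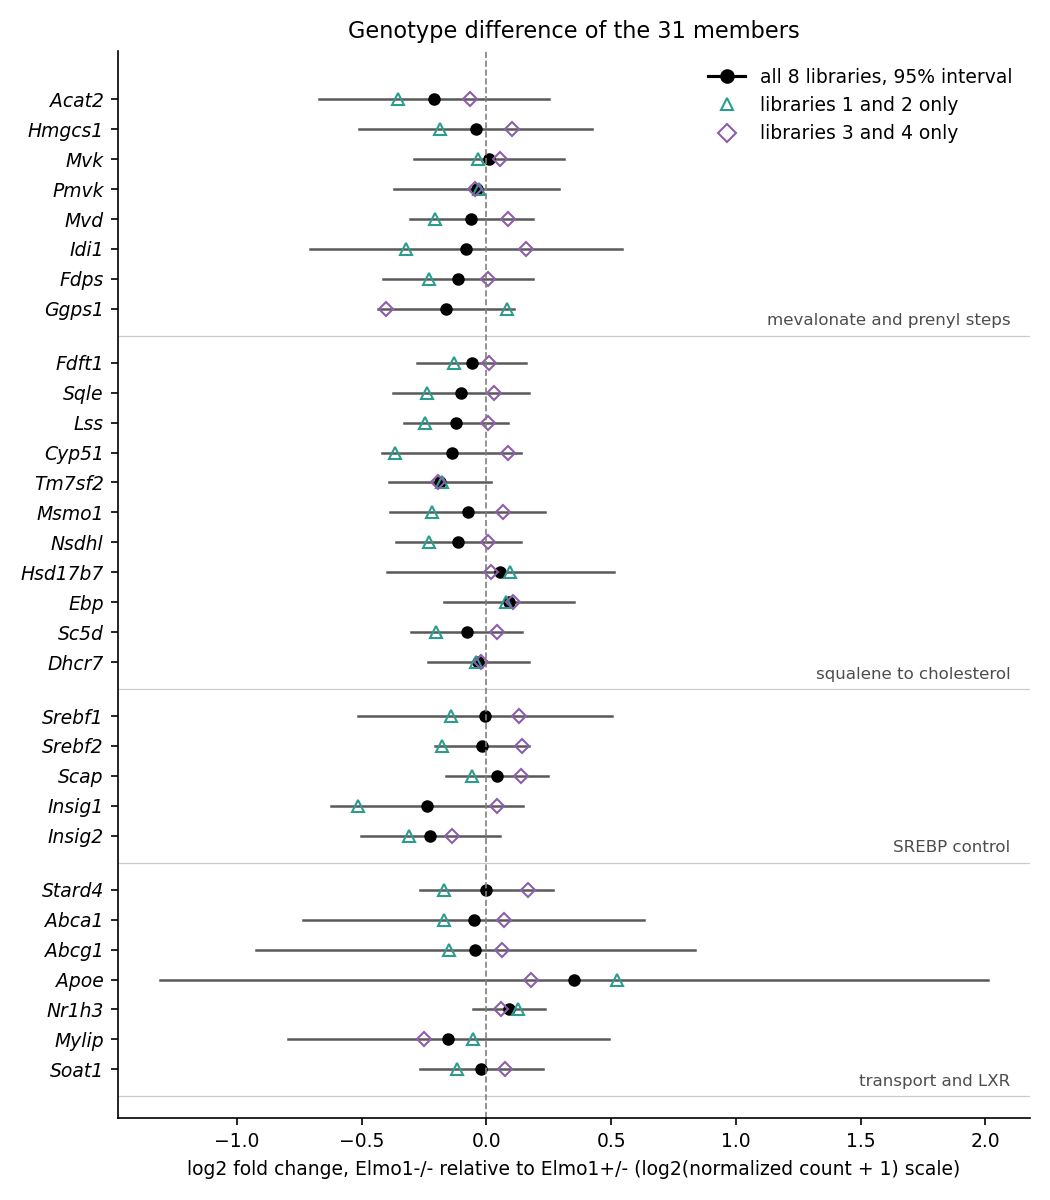
Log2 fold change of each member, *Elmo1*-/- relative to *Elmo1*+/-, on the log2(normalized count + 1) scale, grouped by role, with black points and bars for all 8 libraries and their 95% interval, triangles for libraries 1 and 2 and diamonds for libraries 3 and 4. Every interval includes 0, and for most synthesis genes the triangle lies to the left of 0 and the diamond at or to the right of it.

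At the entry to the pathway, *Acat2*, the cytosolic thiolase that joins acetyl-CoA units, had the third lowest log2 fold change of the members. Its normalized counts were 465, 507, 274 and 493 in controls and 446, 324, 335 and 369 in *Elmo1*-/- mice. A single control, mouse 3, fell below all 4 *Elmo1*-/- mice, and the log2 fold change was −0.21 (standard error 0.20), becoming −0.42 at an unadjusted p of 0.0103 when that mouse was left out, −0.12 without control 2 and −0.14 without control 4. In the *Acat2* transcript 19.8% of the bases have a near-identical match in *Tcp1*, so some of its reads are of uncertain origin.

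*Hmgcs1* (ENSMUSG00000093930, chromosome 13 of GRCm38, 119690379 to 119708260) encodes HMG-CoA synthase, which makes the precursor of mevalonate. Its normalized counts were 2129, 2178, 2378 and 3043 in controls and 1558, 2295, 2769.5 and 3004 in *Elmo1*-/- mice. The lowest and the second highest value were both from *Elmo1*-/- mice, and the means, 2432 ± 421 for controls and 2407 ± 638 for *Elmo1*-/- mice (SD, n = 4 each), differed by far less than the spread between mice (log2 fold change −0.04, standard error 0.21). The antisense gene *Gm48342* overlaps 12.1% of its exon bases on the opposite strand.

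The mevalonate kinases *Mvk* and *Pmvk* and the decarboxylase *Mvd*, which turn mevalonate into isopentenyl diphosphate, had log2 fold changes of 0.01, −0.04 and −0.06, with standard errors of 0.13, 0.15 and 0.11. *Idi1*, which isomerizes isopentenyl diphosphate, measured 101, 99.9, 142 and 133 normalized counts in controls and 67.2, 95.8, 151 and 156 in *Elmo1*-/- mice. The *Elmo1*-/- mice thus held both the lowest pair of values and the highest pair, and the log2 fold change was −0.08 (standard error 0.28). Of the *Idi1* transcript, 33.3% has a near-identical match in *Gm13502* or *Gm48574*, so its absolute level is uncertain. *Gm48574* lies at the same place, where it overlaps 9.2% of the *Idi1* exon bases on the opposite strand.

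*Fdps* (ENSMUSG00000059743, chromosome 3 of GRCm38, 89093588 to 89101959), the bisphosphonate target, measured 382, 326, 251 and 317 normalized counts in controls and 324, 279, 298 and 269 in *Elmo1*-/- mice. All 4 *Elmo1*-/- values fell inside the range of the controls. The means were 319 ± 53.5 for controls and 292 ± 24.0 for *Elmo1*-/- mice (SD, n = 4 each), and the log2 fold change of −0.11 (standard error 0.13) had a 95% interval of −0.41 to 0.19. It was −0.022 without control 1, −0.22 without control 3 and −0.07 without *Elmo1*-/- mouse 4. Because *Gm43738* shares 26.7% of the *Fdps* exon bases on the same strand, reads there could be assigned to either gene or dropped. Near-identical matches in *Gm43738* or *Gm3571* cover 16.7% of the *Fdps* transcript, so its absolute level is uncertain.

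*Ggps1* (ENSMUSG00000021302, chromosome 13 of GRCm38, 14050659 to 14063488), which makes the geranylgeranyl group of Rac proteins, measured 439.6, 427, 603 and 496 normalized counts in controls and 439.9, 479, 424 and 402 in *Elmo1*-/- mice. Controls 3 and 4 stood above every *Elmo1*-/- mouse, while controls 1 and 2 lay among them. The log2 fold change was −0.16 (standard error 0.12) over all libraries, 0.08 within libraries 1 and 2 and −0.40 within libraries 3 and 4, and −0.058 without control 3. The gene lies on the same chromosome as *Elmo1*, as do the members *Hmgcs1*, *Idi1* and *Mylip*. Of 15 genes for protein prenylation, dolichol and ubiquinone side chains, 0 were called and 0 had an unadjusted p under 0.05, the largest change being −0.08 (standard error 0.13) for *Chml*, a Rab escort protein.

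Among the 11 genes from squalene to cholesterol, *Tm7sf2* (ENSMUSG00000024799, chromosome 19 of GRCm38, 6062821 to 6068373), a sterol reductase, was the only member whose genotypes did not overlap. It measured 198, 193, 204 and 187 normalized counts in controls and 176, 169, 162 and 180.5 in *Elmo1*-/- mice. Every *Elmo1*-/- mouse lay below every control, but narrowly, with 180.5 as the highest *Elmo1*-/- value and 187 as the lowest control. The log2 fold change was −0.19 (standard error 0.09, unadjusted p = 0.0683 and adjusted p = 0.9999 by limma), −0.18 within libraries 1 and 2 and −0.19 within libraries 3 and 4. Non-overlapping genotypes were found for 0.941% of all genes tested, and *Vps51* shares 12.1% of the exon bases of *Tm7sf2* on the same strand.

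*Sqle* encodes squalene epoxidase, a rate-limiting step of the sterol branch. Its normalized counts were 1540.4, 1516, 1532 and 1779 in controls and 1197, 1402, 1649 and 1726 in *Elmo1*-/- mice. *Elmo1*-/- mice 1 and 2 were the lowest of the 8, and mice 3 and 4 were above 3 of the 4 controls. The log2 fold change was −0.10 (standard error 0.12), −0.24 within libraries 1 and 2 and 0.03 within libraries 3 and 4.

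None of the other sterol enzymes came near the threshold. Squalene synthase (*Fdft1*) and lanosterol synthase (*Lss*) had log2 fold changes of −0.06 and −0.12. The lanosterol demethylase *Cyp51* had −0.14, and the 3 genes that remove the C-4 methyl groups, *Msmo1*, *Nsdhl* and *Hsd17b7*, had −0.07, −0.11 and 0.06. The late enzymes *Sc5d* and *Dhcr7* had −0.08 and −0.03. Of these 8, 7 lay below 0 and *Hsd17b7* above, with standard errors between 0.09 and 0.20. The lysosomal protease gene *Ctsb* overlaps 18.3% of the *Fdft1* exon bases on the opposite strand, and whether the counting used strand is not stated. *Ebp*, the sterol isomerase, had the second highest log2 fold change of all members, with normalized counts of 1306, 1270.5, 1052 and 1086 in controls and 1524, 1210.4, 1146 and 1157 in *Elmo1*-/- mice. The highest value was from *Elmo1*-/- mouse 1, and the difference was 0.09 (standard error 0.11), or −0.003 without that mouse.

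In the SREBP system, *Srebf2*, which encodes the factor mainly responsible for the synthesis genes, hardly varied. It measured 3967, 3807, 3542 and 3639 normalized counts in controls and 3491, 3370.3, 3734 and 4209 in *Elmo1*-/- mice, and the *Elmo1*-/- mice held both the lowest and the highest value. Its log2 fold change was −0.02 (standard error 0.08, 95% interval −0.21 to 0.17), and that of *Scap* was 0.04 (standard error 0.09).

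*Insig1* (ENSMUSG00000045294, chromosome 5 of GRCm38, 28071363 to 28078662), both a brake on SREBP and a target of it, had the lowest log2 fold change of the 31 members. Its normalized counts were 2294, 2008, 2062 and 2457 in controls and 1419, 1585, 2245 and 2391 in *Elmo1*-/- mice. *Elmo1*-/- mice 1 and 2 were lower than every other library, while *Elmo1*-/- mice 3 and 4 were higher than 2 and 3 of the 4 controls. The log2 fold change was therefore −0.24 (standard error 0.17) over all libraries, −0.52 within libraries 1 and 2 and 0.04 within libraries 3 and 4. Without *Elmo1*-/- mouse 1 it was −0.11 and *Mylip* was the lowest member at −0.37. Without control 1 *Insig1* was at −0.217 and *Insig2* lower, at −0.243. *Acat2* reached −0.42 without control 3, whereas *Insig1* was never below −0.36, its value without *Elmo1*-/- mouse 4. Its place as the lowest member thus depended on more than a single library. The difference between the within-set values was not tested.

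*Insig2*, the related anchor protein that does not depend on SREBP, was next with −0.23 (standard error 0.12). It measured 1467, 1346, 1667 and 1626 normalized counts in controls and 1143, 1121, 1487 and 1502 in *Elmo1*-/- mice. In each set both *Elmo1*-/- mice lay below both controls, although the genotypes overlapped over the 8 libraries. *Tm7sf2* did the same within each set, and how many of all genes did so was not counted. With the replicate number as a block in limma the unadjusted p of *Insig2* was 0.00681, and with the set as a term 0.00419. The adjusted p stayed above 0.05 in both fits. Of the 14139 genes tested, 389 and 411 had an unadjusted p under 0.05 in these fits, beside 1 of the 31 members in each. Of 10 further genes for SREBP processing and sterol sensing, 0 were called and 0 had an unadjusted p under 0.05. The largest change among them was −0.26 (standard error 0.27) for *Pgrmc1*, a membrane heme protein that supports sterol demethylation, with −0.41 to −0.07 when single libraries were left out.

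On the LXR side, the cholesterol exporters *Abca1* and *Abcg1* had genotype differences near 0 but varied strongly between mice. *Abca1* (ENSMUSG00000015243, chromosome 4 of GRCm38, 53030787 to 53159895), which loads cholesterol onto lipid-poor apolipoprotein, measured 6411, 7312, 3932 and 3355 normalized counts in controls and 7465, 4948, 3427 and 4240.4 in *Elmo1*-/- mice. *Abcg1* (ENSMUSG00000024030, chromosome 17 of GRCm38, 31057675 to 31117988), which exports cholesterol to high-density lipoprotein, measured 2154, 2442, 968 and 1155 and 2899, 1470.2, 1013 and 1206 in the same order. For both genes the 4 libraries numbered 1 and 2 were above the 4 numbered 3 and 4, with *Elmo1*-/- mouse 1 highest. The genotype log2 fold changes were −0.05 (standard error 0.30) and −0.04 (standard error 0.39).

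*Apoe* (ENSMUSG00000002985, chromosome 7 of GRCm38, 19696109 to 19699188) had the highest and least certain log2 fold change of the members, 0.35 with a standard error of 0.73 and a 95% interval of −1.31 to 2.01. It measured 6177, 7328, 2121 and 1914 normalized counts in controls and 19396, 4808, 2352 and 2216 in *Elmo1*-/- mice. *Elmo1*-/- mouse 1 alone exceeded the next library by more than any other gap among the 8, and leaving it out turned the value to −0.33. The *Elmo1*-/- mean of 7193 ± 8222 (SD, n = 4) against 4385 ± 2775 in controls thus rests on 1 library.

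*Srebf1*, an LXR target as well as an SREBP gene, measured 2448, 2433, 1474 and 1484 normalized counts in controls and 2623, 1869, 1574 and 1660.1 in *Elmo1*-/- mice, a log2 fold change of −0.01 (standard error 0.23). *Mylip*, a ubiquitin ligase that marks lipoprotein receptors for degradation, measured 1399.7, 1389, 1031 and 763 and 1575, 1147, 698 and 795 in the same order, a log2 fold change of −0.15 (standard error 0.28). For both genes libraries 1 and 2 of either genotype lay above libraries 3 and 4, and the genotypes overlapped. *Nr1h3*, the gene of LXR alpha, was the steadiest member at 1293, 1344, 1358 and 1345 in controls and 1541, 1341, 1376 and 1435 in *Elmo1*-/- mice, and after *Apoe* and *Ebp* it had the next highest log2 fold change, 0.09 with a standard error of 0.06, or 0.05 without *Elmo1*-/- mouse 1. The sterol carrier *Stard4* and *Soat1* had −0.0010 and −0.02, with standard errors of 0.12 and 0.11.

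**Figure D3:**
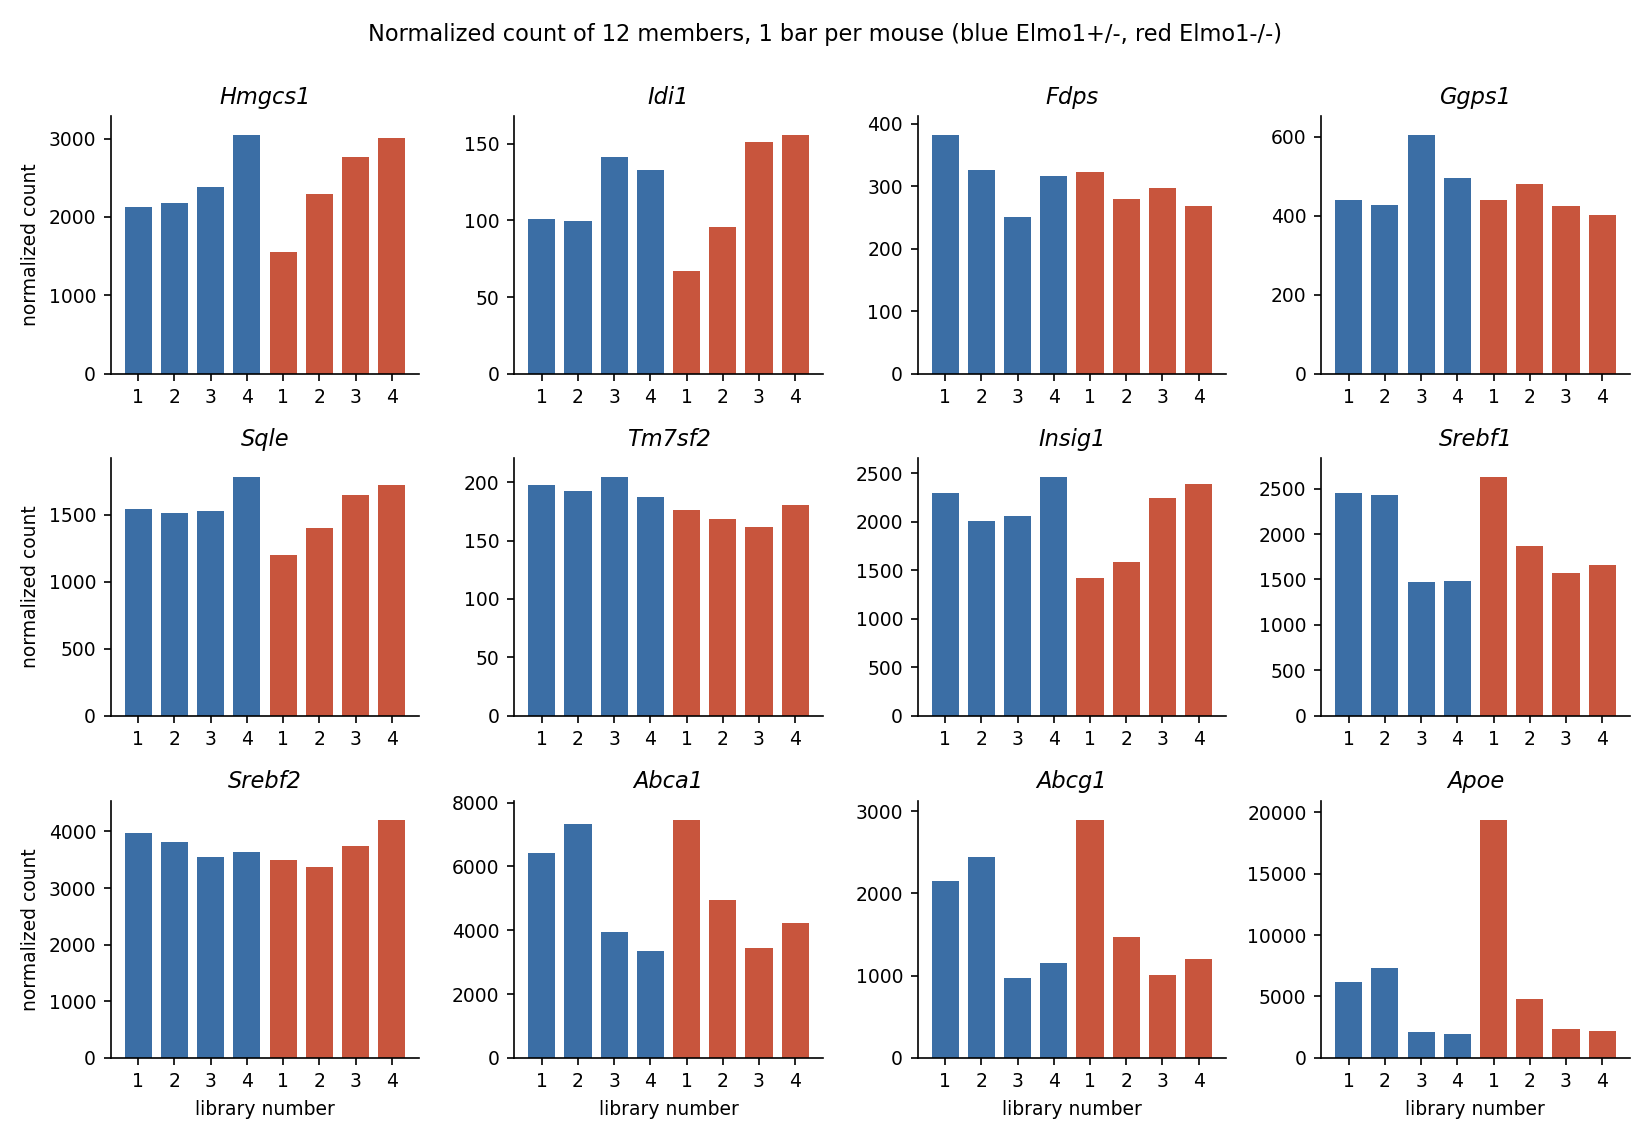
Normalized count of 12 members in each of the 8 libraries, 1 bar per mouse, blue for *Elmo1*+/- and red for *Elmo1*-/- mice 1 to 4. *Abca1*, *Abcg1*, *Apoe* and *Srebf1* are tall in libraries 1 and 2 of both genotypes, *Idi1* and *Hmgcs1* are tall in libraries 3 and 4, and *Elmo1*-/- mouse 1 has the tallest *Apoe* bar at 19396.

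The larger differences within the pathway thus ran between the set of libraries 1 and 2 and the set of libraries 3 and 4. Since this split was first seen in the data, and no label explains the numbers, the following values are a description with no test. In 6 members every library numbered 1 or 2 was above every library numbered 3 or 4, which was the case for 15.8% of all genes tested, and in 5 members every such library was below, as for 18.1% of all genes. The 31 members together were thus divided about as often as genes in general. By role, 4 of the 7 transport and LXR members, 1 of the 5 SREBP members and 1 of the 11 sterol members were higher in libraries 1 and 2, and 2 of the 8 mevalonate members, 2 of the 11 sterol members and 1 of the 5 SREBP members were higher in libraries 3 and 4.

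The members higher in libraries 1 and 2 were mostly LXR targets. *Apoe* differed by 1.91 on the log2 scale between the set means (1.74 among *Elmo1*+/- and 2.08 among *Elmo1*-/- mice), *Abcg1* by 1.01, *Abca1* by 0.79, *Mylip* by 0.75 and *Srebf1* by 0.59. Without *Elmo1*-/- mouse 1 these differences were 1.49, 0.87, 0.72, 0.68 and 0.53. The sixth, *Ebp*, is a synthesis gene and differed by 0.25. Of the 7 transport and LXR members, 4 were in this class and 0 were in the opposite one. *Nr1h3*, which encodes the receptor, did not follow its targets, with a difference of −0.002.

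The members higher in libraries 3 and 4 were synthesis genes and *Insig2*. *Idi1* differed by −0.69 (libraries 1 and 2 minus libraries 3 and 4), *Hsd17b7* by −0.49, *Hmgcs1* by −0.46, *Insig2* by −0.31 and *Nsdhl* by −0.23. *Hsd17b7*, which completes the removal of the C-4 methyl groups, measured 351, 354, 516 and 499 normalized counts in controls and 311, 455, 484 and 545 in *Elmo1*-/- mice. *Insig1*, *Msmo1* and *Sqle* had differences of −0.35, −0.32 and −0.25, but their sets overlapped. With equal library totals the sets of *Hmgcs1* overlapped while those of *Sqle* and *Msmo1* did not, and with TMM scaling *Msmo1* was added to the class. Not all synthesis genes leaned the same way. *Acat2*, *Mvk*, *Pmvk*, *Mvd* and *Fdps* had positive differences of 0.26, 0.21, 0.20, 0.16 and 0.20 with overlapping sets, so that 5 of the 8 mevalonate genes leaned to libraries 1 and 2 and 3 to libraries 3 and 4. Among the 11 sterol genes 4 leaned to libraries 1 and 2 and 7 to libraries 3 and 4, although *Tm7sf2*, at 0.005, changed sign to −0.03 with equal library totals.

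**Figure D4:**
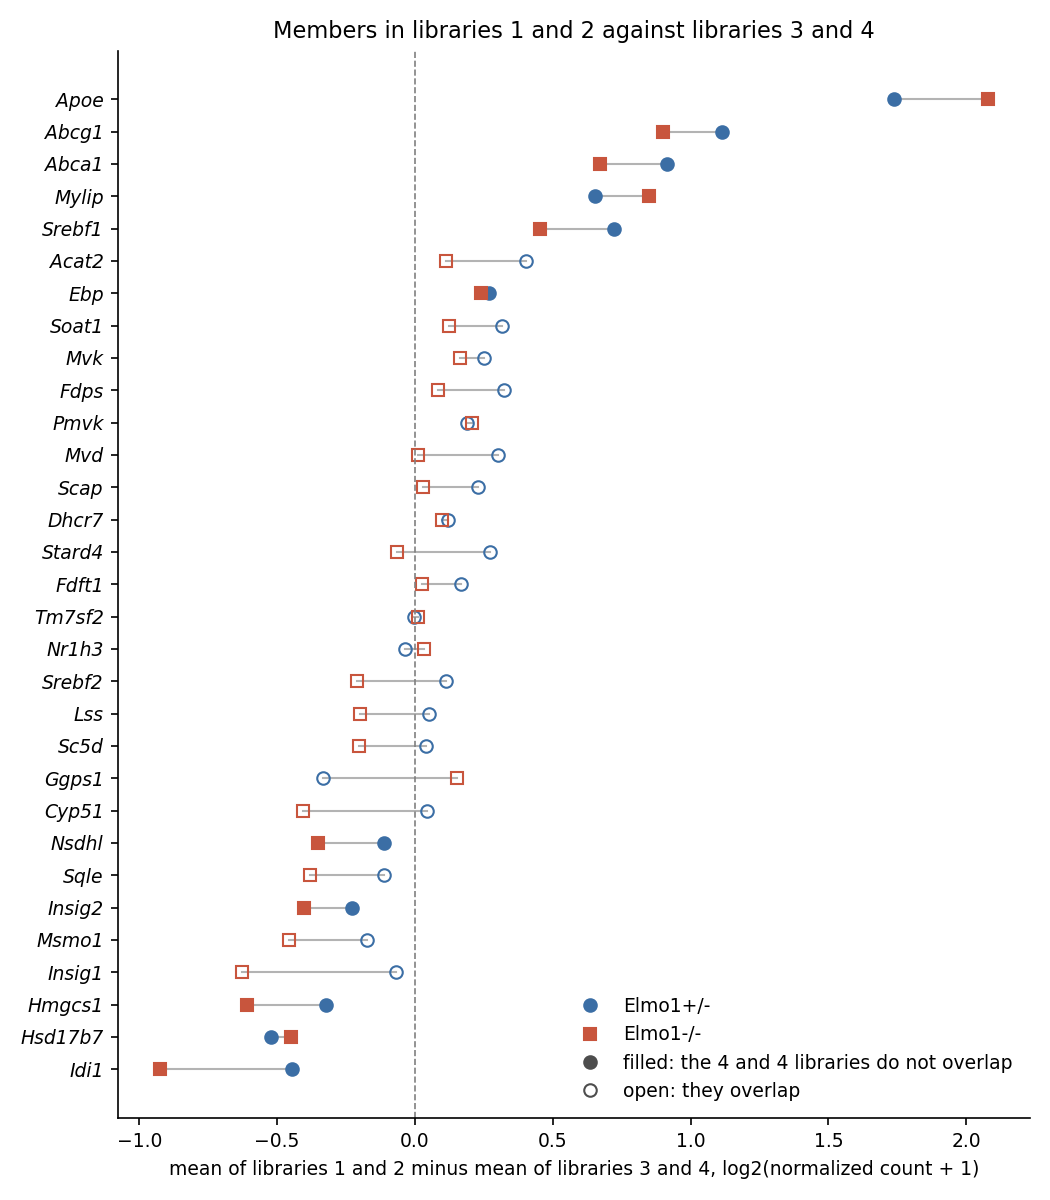
Mean of libraries 1 and 2 minus mean of libraries 3 and 4 for each member on the log2(normalized count + 1) scale, blue circles for *Elmo1*+/- and red squares for *Elmo1*-/- mice, filled where the 4 and 4 libraries do not overlap. *Apoe*, *Abcg1*, *Abca1*, *Mylip* and *Srebf1* lie far to the right and *Idi1*, *Hsd17b7* and *Hmgcs1* to the left in both genotypes.

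A single library, that of *Elmo1*-/- mouse 1, held the extreme of this arrangement. It had the highest normalized count of all 8 for 11 members, namely *Mvk*, *Pmvk*, *Ebp*, *Dhcr7*, *Srebf1*, *Scap*, *Abca1*, *Abcg1*, *Apoe*, *Nr1h3* and *Mylip*. It had the lowest for 8, namely *Hmgcs1*, *Idi1*, *Sqle*, *Lss*, *Cyp51*, *Msmo1*, *Hsd17b7* and *Insig1*. The summed osteoclast markers were lower in libraries 1 and 2, with the lowest sum of the 8, 452772, in *Elmo1*-/- mouse 1. The same library had the highest summed macrophage markers, 194881, and the highest summed neutrophil markers, 22647, and *Mrc1*, *Cd14*, *Mertk* and *S100a8* separated the sets in the same direction as the LXR targets. The part of these marker levels in these differences was not tested, and in bulk RNA fewer osteoclasts and less RNA per osteoclast cannot be told apart.

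**Figure D5:**
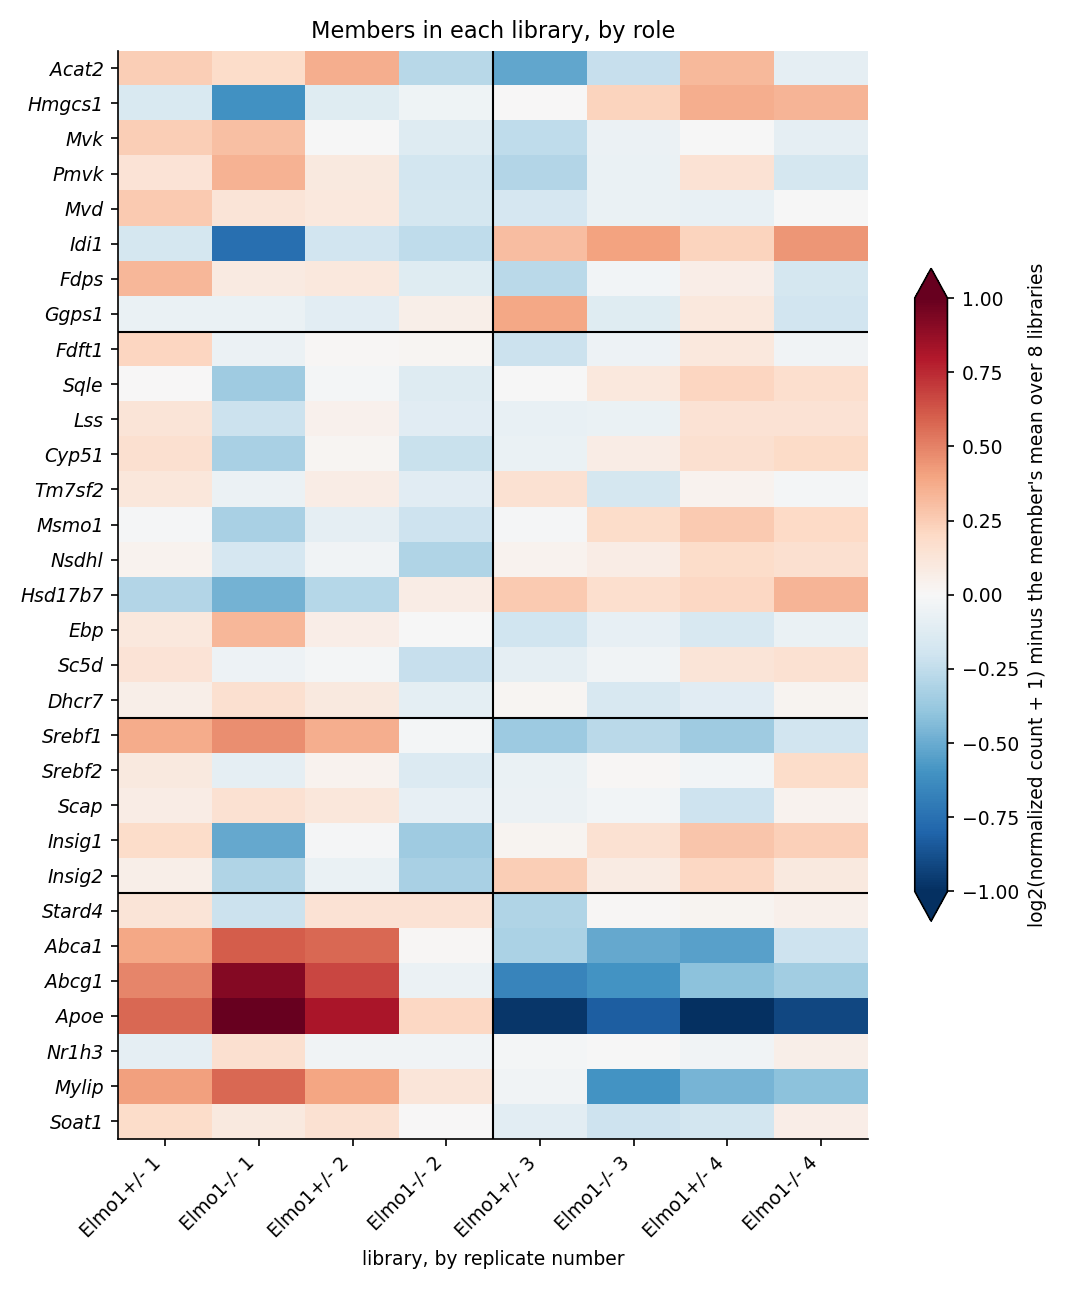
Difference of each member's log2(normalized count + 1) from its mean over the 8 libraries, 1 column per library ordered by replicate number and 1 line per member grouped by role, red above and blue below the mean, with colours saturating at 1. The LXR targets are red to the left of the vertical line, in libraries 1 and 2 except *Elmo1*-/- mouse 2, and blue to the right. In *Elmo1*-/- mouse 2 *Abca1*, *Abcg1* and *Srebf1* lie close to their means (0.01, −0.06 and −0.02). The column of *Elmo1*-/- mouse 1 has the strongest colours.

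Neighbouring lipid genes, listed for their function, were also divided between the sets, which is described here with no test. Among 12 fatty acid genes controlled by SREBP, 5 were higher in libraries 1 and 2 without overlap and 2 in libraries 3 and 4, beside 15.8% and 18.1% of all genes, with a median difference of 0.42 over the 12. *Scd1*, the stearoyl-CoA desaturase, differed by 1.13 and *Fasn*, fatty acid synthase, by 0.42. Of 17 tested genes for sterol transport, storage and oxysterols, 6 were higher in libraries 1 and 2 and 2 in libraries 3 and 4 without overlap, beside the same shares of all genes. *Cyp27a1*, which makes an oxysterol that activates LXR, differed by 1.39, the phospholipid transfer protein *Pltp* by 1.13, and the lipoprotein lipase *Lpl* by −0.85. Between the genotypes, limma called 0 genes of either list, and 0 had an unadjusted p under 0.05. The largest genotype difference of each list was −0.25 (standard error 0.36) for the desaturase *Scd2* (−0.58 without control 3 and −0.04 without control 2) and 0.37 (standard error 0.21) for *Ch25h*, another oxysterol-forming enzyme (0.22 without *Elmo1*-/- mouse 2).

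Promoter windows of the members, from 250 bases before to 50 bases after the transcription start in RefSeq (GRCm38.p6), were matched for 26 of the 31 members (not for *Fdps*, *Fdft1*, *Sqle*, *Stard4* and *Abcg1*). The CCAAT box, bound by NF-Y, which acts together with SREBP, was searched as CCAAT on both strands. It occurred in 21 of the 26 members (80.8%) and in 41.1% of all 27025 genes with a window, a description with no test. All 9 squalene-to-cholesterol members with a window held it, as did 6 of 7 mevalonate members, 4 of 5 SREBP members and 2 of 5 transport and LXR members. A sterol regulatory element, searched as TCACNCCAC on both strands, occurred in 1 member, *Hmgcs1*, and in 1.44% of all genes with a window, and it did not overlap a CCAAT box there. The windows of the LXR targets *Abca1* and *Apoe* held neither motif. A match is a string of letters and not a measured binding site. The 30 bases around the nearest match upstream of the start are given for the members that the sets of libraries separated, because they carry the pattern described above, with the motif in capitals (ATTGG being CCAAT on the other strand) and each written along the strand of its gene.
Hmgcs1 sterol element, chr13:119690204-119690233, + strand: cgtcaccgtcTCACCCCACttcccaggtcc
Hmgcs1 CCAAT box, chr13:119690294-119690323, + strand: tccccgcctctcATTGGctgaaagcggatc
Idi1 CCAAT box, chr13:8885576-8885605, + strand: catggtccaaggtgccATTGGctggcgacc
Nsdhl CCAAT box, chrX:72918489-72918518, + strand: aagactagcctcATTGGgcaaaatcatgct
Hsd17b7 CCAAT box, chr1:169969206-169969235, - strand: gagccgggccgagccttgATTGGtcgaggt
Ebp CCAAT box, chrX:8193550-8193579, - strand: atccctgtactgATTGGttcgtcagattcg
Srebf1 CCAAT box, chr11:60210484-60210513, - strand: gcgcggctgctgATTGGccatgtgcgctca
Insig2 CCAAT box, chr1:121332601-121332630, - strand: tcaccttccacaCCAATctatattaaaatg
Mylip CCAAT box, chr13:45389663-45389692, + strand: aagcacgctgtgATTGGcggagtccggtgc
Of the 5 members higher in libraries 3 and 4, all 5 held a CCAAT box. Of the 6 higher in libraries 1 and 2, 5 had a window and 3 of these held it. Over all 26 members with a window 21 held it, and the comparison was not tested. In *Hmgcs1* the sterol element begins 137 bases before the start and the nearest upstream CCAAT box 45 bases before it.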

How the data were processed

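RNA libraries of 8 osteoclast cultures, from 4 *Elmo1*-/- and 4 *Elmo1*+/- mice, were analysed. Per the labels, mRNA libraries (Illumina TruSeq) were read as 75 bp paired ends, and the submitters' processing notes name FastQC, STAR, featureCounts and DESeq2 without versions. How reads were assigned by build, annotation and strand is not stated (not given in the sources used here). What the authors deposited is a normalized signal, each gene's reads divided by the size factor that the authors' DESeq2 gave to its library, for 46517 Ensembl identifiers. The deposited table also holds the authors' own comparison of the genotypes (log2 fold changes, standard errors, a test statistic and p-values), which was not used. GENCODE mouse release 21 (GRCm38) supplied names, exons and positions, and 46005 identifiers matched and 512 did not.

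Dividing each library by its smallest step returned whole reads for 100% of values (tolerance 0.01 of a read). Any pair of libraries differed by far more than sampling noise (mean chi-square per gene 8.58 to 187.6), so none was a copy. The 31 members and the gene and marker lists were chosen with earlier results of these data known. The main test was limma 3.58.1 (trend and robust) in R 4.3.3 on log2(normalized count + 1), two-sided, without a batch term, for genes that reached a normalized count of 10 in 4 or more libraries. Benjamini-Hochberg adjustment ran over all 14139 genes, with a threshold of 0.05. The p-values measure the spread between mice, each cultured once, and in the main fit this spread includes the difference between the sets of libraries.

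Named in full were the members fixed by role, the 3 highest and 3 lowest log2 fold changes, members whose genotypes did not overlap, and the 5 largest differences between the sets of libraries. The wider lists are represented by their largest genotype difference, and the per-library values of *Hsd17b7* and the genes *Scd1*, *Fasn*, *Cyp27a1*, *Pltp* and *Lpl* were chosen after their values were seen. Levels per kilobase used the length of all annotated exons of a gene. Alternatives were edgeR 4.0.16 and DESeq2 1.42.0 on the recovered reads, scaling by TMM or to equal totals, a minimum of 50 or none, other pseudocounts (0.5, 8), omission of each library, the replicate number as a block, the set of libraries as a term, and each set alone. The replicate numbers met the rule used for pairing, since deviations from the genotype mean correlated across genes in every same-numbered pair (r = 0.704, 0.156, 0.598 and 0.520). Different numbers of the same set gave 0.0259 to 0.691, so these correlations cannot tell pairs by number from the sets. The labels do not say what a number stands for. The fitting was tested on simulated counts. Tables were handled with pandas 2.3.3 and numpy 2.4.6 in Python 3.11.15, and figures drawn with matplotlib 3.10.9. Near-identical matches were stretches of at least 75 bases with at least 98% identity to a transcript of another gene, including genes that overlap the member. Protein sequences were not used here.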

Additional observations from a re-analysis of the deposited data

Results flagged for a closer look

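Each member was examined in each genotype for a library far from the other 3, by Dixon's ratio of the gap to the whole range (95% critical value for 4 mice). Of 62 groups of 4 mice, 5 exceeded it, where chance gives about 1 in 20 groups, or 3.1. *Elmo1*-/- mouse 1 accounted for 3 of the 5. Its *Apoe* of 19396 normalized counts stood above the 2216 to 4808 of the other *Elmo1*-/- mice, its *Ebp* of 1524 above their 1146 to 1210.4, and its *Mvk* of 597.9 above their 443 to 464. Among controls, mouse 3 was low for *Pmvk* at 592.3 against 776 to 801 in the others, and mouse 4 was high for *Sqle* at 1779 against 1516 to 1540.4. *Elmo1*-/- mouse 1 also had the lowest summed osteoclast markers of the 8 libraries (452772) and the highest summed macrophage (194881) and neutrophil markers (22647), and control mouse 3 had the fewest reads (20905502); their part in these values was not tested.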

How the results depend on the processing

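No member was called under any of the 20 alternatives, so the count of 0 of 31 held under each other test, scaling, filter, pseudocount and subset. In the alternatives that kept both sets of libraries, 0 genes of the wider lists were called either, a count not made within each set alone. The count of all genes called was 1 under most alternatives and 2 by DESeq2 and within libraries 3 and 4. It was 1 to 2 when a single library was left out, with 2 without *Elmo1*+/- mouse 2. The log2 fold change of *Elmo1* ran from −2.49 to −2.39 when a single library was left out. With the replicate number as a block (replicate block, the paired fit) the median over the members was −0.06 and 0 members were called. By limma 1 member, *Insig2*, had an unadjusted p under 0.05 in that fit, as had 389 of the 14139 genes tested. The block changed no call. The median over the members moved to −0.17 within libraries 1 and 2 and to 0.053 within libraries 3 and 4, where the spread of the members' median between mice was 0.072, and lay between −0.12 and −0.022 when a single library was left out. The cause of these shifts was not tested. Of 620 values of single members under other settings, 67 had the opposite sign. Within libraries 3 and 4 the log2 fold changes became *Hmgcs1* 0.10, *Mvd* 0.086, *Idi1* 0.16, *Fdps* 0.0052, *Fdft1* 0.011, *Sqle* 0.032, *Lss* 0.0058, *Cyp51* 0.085, *Msmo1* 0.067, *Nsdhl* 0.0064, *Sc5d* 0.042, *Srebf1* 0.13, *Srebf2* 0.14, *Insig1* 0.042, *Stard4* 0.17, *Abca1* 0.070, *Abcg1* 0.063, *Soat1* 0.076, *Chml* 0.052. Within libraries 1 and 2 they became *Mvk* −0.033, *Ggps1* 0.083, *Scap* −0.058, and with equal totals *Srebf1* 0.00040, *Stard4* 0.0055. Leaving out single libraries gave ranges that cross 0 for *Hmgcs1* −0.16 to 0.15, *Mvk* −0.089 to 0.094, *Pmvk* −0.16 to 0.016, *Mvd* −0.13 to 0.017, *Idi1* −0.24 to 0.16, *Fdft1* −0.14 to 0.00056, *Msmo1* −0.15 to 0.021, *Hsd17b7* −0.047 to 0.22, *Ebp* −0.0033 to 0.14, *Dhcr7* −0.092 to 0.015, *Srebf1* −0.16 to 0.12, *Srebf2* −0.082 to 0.025, *Scap* −0.022 to 0.085, *Stard4* −0.10 to 0.069, *Abca1* −0.26 to 0.13, *Abcg1* −0.36 to 0.17, *Apoe* −0.33 to 0.71, *Mylip* −0.37 to 0.021, *Soat1* −0.086 to 0.046, *Chml* −0.14 to 0.022. The number of members whose sets of libraries did not overlap was 12 with equal totals and with TMM scaling, against 11, and 11 to 16 when a single library was left out, 16 of them (51.6%) without *Elmo1*-/- mouse 2, where 52.4% of all genes did not overlap. These sets were described and not tested. With 4 mice a genotype, intervals as wide as that of *Apoe* leave large differences undetectable, while depth was not low, since every member had 71 or more reads in each library.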
